A study of Mus musculus with 12 samples.

Results

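Cytosolic ribosomal protein genes code for the proteins of the large and small subunits of the ribosomes that translate mRNA in the cytosol. The genes described here are the 76 whose deposited symbol is Rpl or Rps with a number, where a suffix a, x, l or l1 is allowed, together with Rplp0, Rplp1, Rplp2 and Rpsa, and that have a probe set assigned to 1 gene. The rule used names and no measured value, though it was chosen with earlier results of these data known. The 76 genes are among 20962 genes measured on such probe sets. Of these, 45 code for proteins of the large subunit and 31 for proteins of the small subunit, and they lie on 19 chromosomes. Another 5 ribosomal protein genes, namely Rpl29, Rpl30, Rpl35a, Rpl39 and Rps3a, were found under their symbols only on probe sets shared with other loci. Rpl5 was listed under an older locus name and is therefore outside the 76.

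RNA of CD8 T cells was measured on 12 Affymetrix high-throughput mouse arrays, which read each gene with probe sets of short oligonucleotides. The cells came from 6 C57BL/6 (B6) mice aged 4 weeks, 3 wild type at Ezh2 (mice 1 to 3) and 3 conditional knockouts (mice 4 to 6). The knockouts carried floxed alleles on both copies of Ezh2, which codes for the histone methyltransferase of Polycomb complex PRC2, together with Cre under the promoter of CD4, so that the gene is removed in T cells. CD8 cells of the spleen and lymph nodes were purified with antibody beads (purity over 93%), and each mouse gave 1 naive and 1 activated sample. Naive cells were measured fresh. Activated cells had spent 3 days on plate-bound antibodies against CD3 and a second protein, given as CD28 in the series text and as CD38 in the sample labels. No cells cultured without stimulation are part of the design, so activation and culture cannot be told apart. About 200 ng of RNA per sample was amplified. A value is a log2 level on a scale that was made alike on all arrays, so the total amount of ribosomal protein mRNA per cell was not measured, and fewer cells of a type and less RNA per cell cannot be told apart.

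Array medians lay between 0.91 and 0.98, and every array had the same maximum of 10.59. Ezh2 read between 2.16 and 2.42 in naive wild-type cells and between 1.95 and 2.18 in naive knockout cells, and between 5.26 and 5.56 in activated wild-type cells and between 2.72 and 3.78 in activated knockout cells. The difference between genotypes was -2.02 ± 0.20 (log2, SE, n = 3 per group, limma adjusted p = 4.09e-05) in activated cells and -0.20 ± 0.20 (adjusted p = 0.845) in naive cells, and whether the probes lie in the deleted part is not known. All mice are labelled male. The brighter of 2 probe sets for Xist, the RNA of the silenced X chromosome in female cells, nonetheless read between 6.28 and 7.01 on all 12 arrays, and 11 probe sets for the Y-linked genes Ddx3y, Eif2s3y, Kdm5d and Uty read between 0.15 and 0.98, which goes against that label in all 4 groups alike. The CD8 T cell markers Cd8a, Cd8b1, Cd3d, Cd3e and Cd3g had group means between 4.87 and 7.65 in all 4 groups.

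A ribosome needs about equal numbers of nearly all of its proteins, and the mRNAs of these proteins are among the most abundant in a cell. In mammals most of them begin with a run of pyrimidines (a 5′ terminal oligopyrimidine tract, or TOP), through which the kinase complex mTORC1 and the protein LARP1 govern how much of an existing pool of mRNA is translated. T cells that leave rest enlarge and make many new ribosomes. A few ribosomal protein genes have paralogs, close copies whose expression can differ between tissues.

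RefSeq (assembly GRCm38.p6) gave promoter sequences for 58 of the 76 genes. A run of at least 9 C or T on the coding strand, uninterrupted and lying within 5 bases of an annotated start, was present in 23 of the 58 (39.7%), and in 8.09% of all 27025 genes with such a sequence. Shorter stretches were not counted, such as those of 7 bases near annotated starts of Rpl12 and Rps21. A gene without the run is therefore not shown to lack a TOP tract. Windows of 30 bases, 15 on each side of the annotated start, are printed 5′ to 3′ on the coding strand with the run in capitals. The first 5 are shown because they have the longest runs of the family, of 21, 20, 20, 18 and 17 bases, part of which can lie outside the window. The next 6 belong to genes on whose changes the results below turn, and among these Rps27l, Rpl22l1 and Rpl14 hold a run, at the first of 2 annotated starts for Rps27l.
Rpl7a (chr2:26910792-26910821, plus strand): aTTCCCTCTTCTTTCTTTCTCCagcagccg
Rpl27a (chr7:109519180-109519209, plus strand): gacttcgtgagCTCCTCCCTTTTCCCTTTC
Rpl34 (chr3:130730323-130730352, minus strand): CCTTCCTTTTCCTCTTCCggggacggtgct
Rpl35 (chr2:39005117-39005146, minus strand): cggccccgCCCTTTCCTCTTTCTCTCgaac
Rpl15 (chr14:18270972-18271001, minus strand): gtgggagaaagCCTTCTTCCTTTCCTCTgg
Rps27l (chr9:66946071-66946100, plus strand): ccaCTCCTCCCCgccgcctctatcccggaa
Rpl7l1 (chr17:46782642-46782671, minus strand): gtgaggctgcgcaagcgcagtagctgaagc
Rpl22l1 (chr3:28805493-28805522, plus strand): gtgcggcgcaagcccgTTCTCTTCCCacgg
Rpl14 (chr9:120571502-120571531, plus strand): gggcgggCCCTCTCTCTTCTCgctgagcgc
Rps7 (chr12:28635939-28635968, minus strand): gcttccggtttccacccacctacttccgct
Rpl12 (chr2:32961697-32961726, plus strand): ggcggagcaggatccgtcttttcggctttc
Within the whole promoter sequences, from 250 bases before to 50 after the start and searched on both strands, the ETS-type motif CCGGAAGT was found for 20.7% of the 58 genes and 4.31% of all genes. The E-box CACGTG was found for 10.3% and 8.09%. A match describes the sequence and is neither a site nor a cause, and the motifs can overlap each other or the run.

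Most ribosomal protein transcripts stayed close to their naive level on activation, on a scale made alike on all arrays, as did most genes. In wild-type cells 3 of the 76 genes rose and 11 fell, and 62 did not pass (limma, Benjamini-Hochberg adjusted p under 0.05 over all genes), where over all genes 14.8% rose and 11.9% fell. The median change over the 76 genes was -0.07, and over all genes it was -0.03. In knockout cells 3 rose and 19 fell, and 54 did not pass, where 15.8% of all genes rose and 10.9% fell. The medians there were -0.07 and -0.02. With each array centred on its median the calls were 4 higher and 7 lower in wild-type cells and 5 higher and 13 lower in knockout cells. The change lay within 0.5 log2 units of 0 for 71 of 76 genes (93.4%) in each genotype, compared with 82.4% of all genes in wild-type and 81.4% in knockout cells. The median size of the change in wild-type cells was 0.10 over the 76 genes and 0.15 over all genes. In knockout cells these sizes were close, at 0.13 and 0.14. Only Rps27l and Rpl7l1 among the 76 moved by 1 log2 unit or more.

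Larger changes were recorded for other genes with a level over the same minimum. The mean level was over 7 for 66 of the 76 genes and for 136 other genes. Among the 66, the changes in wild-type cells ran from -0.56 to 0.30, with 1 gene higher and 10 lower, and the median size of the change was 0.09. Among the 136 others they ran from -1.97 to 2.08, with 55 higher and 32 lower, and the median size was 0.39. In knockout cells the median sizes were 0.13 and 0.44, and 1 of the 66 rose and 18 fell. The level of 7 was chosen after the values were seen, and the 2 groups of genes were neither matched on level nor tested against each other. Arrays of 1 group agreed closely on these genes, with a median within-group SD of 0.05 over the 76, 0.07 over all genes with a mean over 7 and 0.13 over all genes.

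**Figure D1:**
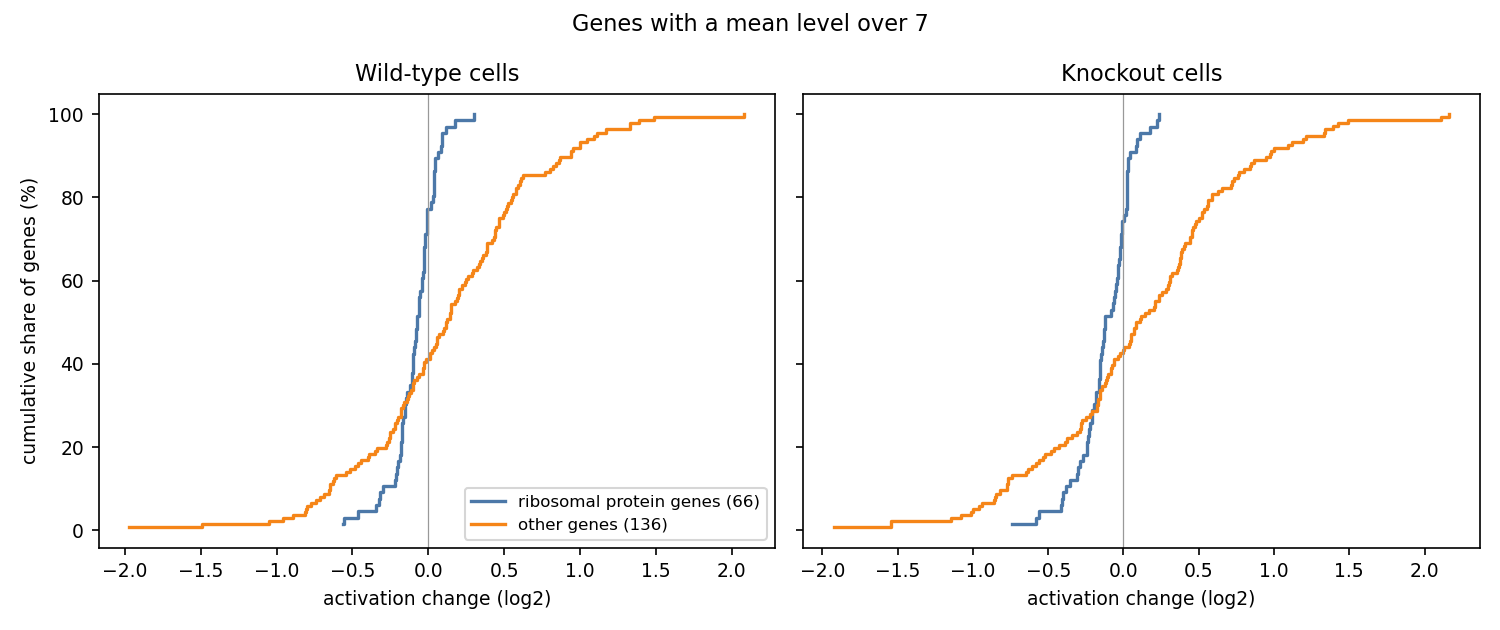
Cumulative share of genes (vertical axis, percent) against the activation change (horizontal axis, log2) in wild-type cells (left) and knockout cells (right), for the 66 ribosomal protein genes and the 136 other genes with a mean level over 7. The curve of the ribosomal protein genes is steep around 0 and stays between -0.56 and 0.30 in wild-type cells, while that of the other genes runs from -1.97 to 2.08.

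The largest changes were in paralogs. Rps27l codes for a close relative of the small-subunit protein eS27 and is a known target of p53. Its level was 3.91, 3.98 and 3.89 in naive wild-type cells and 6.51, 6.59 and 6.72 in the activated cells of the same mice, and it was 3.03, 3.99 and 3.96 in naive and 6.52, 6.61 and 6.45 in activated knockout cells. Naive and activated samples did not overlap, and 1 naive knockout sample, of mouse 4, lay below the others. Rps27l rose by 2.68 ± 0.18 (log2, SE) or 6.42-fold in wild-type cells (adjusted p = 2.5e-08) and by 2.86 ± 0.18 or 7.28-fold in knockout cells (adjusted p = 1.15e-08), in 3 of 3 mice each. The chosen probe set is marked antisense in the annotation, and the other 2 probe sets of the gene, which are not, rose by 3.20 and 2.74 in wild-type cells. Its partner Rps27 read 2.29 ± 0.19 in naive and 2.05 ± 0.09 in activated wild-type cells (SD, n = 3 each), a difference of -0.25 ± 0.11 (adjusted p = 0.118). The only single-gene probe set of Rps27 was dim, with a mean of 2.11 over all arrays, and carries a cross-hybridization note in the annotation. Its values therefore do not show which of the 2 genes is more expressed, nor that Rps27 stayed level.

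Rpl7l1, whose product resembles the large-subunit protein uL30 and acts in the maturation of that subunit, behaved in the same way. It read 1.32, 1.19 and 0.79 in naive and 3.02, 2.88 and 3.10 in activated wild-type cells, and 1.34, 1.52 and 1.34 in naive and 2.73, 3.13 and 3.24 in activated knockout cells. The naive and activated samples were separate in both genotypes. The rise was 1.90 ± 0.14 or 3.74-fold in wild-type cells (adjusted p = 6.29e-08) and 1.63 ± 0.14 or 3.10-fold in knockout cells (adjusted p = 2.82e-07). Of its 3 probe sets, 2 rose in both genotypes and the dimmest did not pass. Rpl7, the ribosomal partner, differed by 0.04 ± 0.09 in each genotype (adjusted p = 0.823 and 0.816).

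Rpl22l1 went the other way. Its product can take the place of the large-subunit protein eL22, and in mice Rpl22 itself is needed for normal development of alpha-beta T cells. Rpl22l1 read 7.69, 7.75 and 7.78 in naive and 7.18, 7.13 and 7.25 in activated wild-type cells, and 7.47, 7.72 and 7.81 in naive and 7.20, 7.23 and 7.35 in activated knockout cells. It fell by 0.56 ± 0.09 on the log2 scale in wild-type cells (adjusted p = 0.000244) and by 0.41 ± 0.09 in knockout cells (adjusted p = 0.0034), and naive and activated samples did not overlap. Rpl22 differed by 0.03 (95% interval -0.12 to 0.19) and 0.02 (-0.13 to 0.18).

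Of the remaining paralogs, Rpl36a and Rps4l passed, in knockout cells. Rpl3l, the muscle form of Rpl3, and Rpl39l, the form of Rpl39 that is abundant in the testis, were dim, with means over all arrays of 0.57 and 1.54. Rpl3, Rpl10 and the X-linked Rps4x differed by -0.10, 0.03 and -0.17 in wild-type cells. Rpl36a passed in knockout cells only, at -0.21 ± 0.07 (adjusted p = 0.0483), and it lost the call in 16 of 22 alternatives, among them the mouse as a block (adjusted p = 0.0827). Its copy Rpl36al, which the naming rule leaves out, differed by -0.10 and -0.16 and did not pass. Rps4l, listed under an older symbol, dim (mean 1.02) and read by a probe set marked antisense, rose by 0.32 ± 0.08 in knockout cells (adjusted p = 0.0075), against 0.06 in wild-type cells. Of the 16 genes of the list of paralog pairs, 14 were measured, of which 2 rose and 1 fell in wild-type cells and 3 rose and 2 fell in knockout cells, with medians of -0.04 and -0.07.

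**Figure D2:**
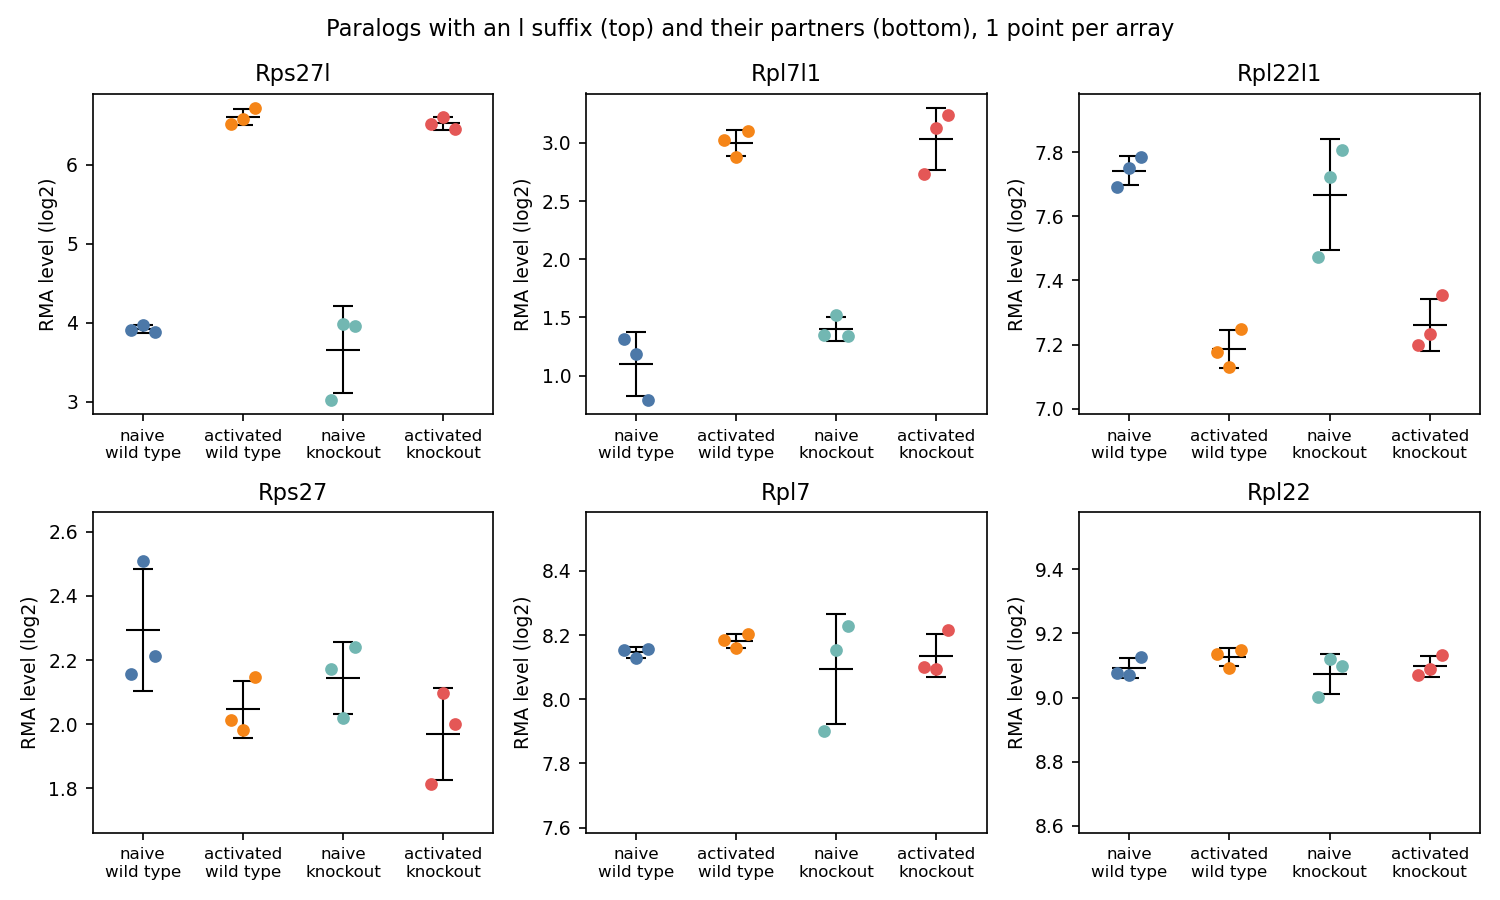
Levels (vertical axes, RMA log2) of Rps27l, Rpl7l1 and Rpl22l1 (top) above those of Rps27, Rpl7 and Rpl22 (bottom) in the 4 groups, with 1 point per array and black bars for the mean ± SD of 3 arrays. Vertical ranges differ between panels. Rps27l and Rpl7l1 were higher and Rpl22l1 was lower in every activated sample than in every naive sample of its genotype, and the means of Rpl22 stayed between 9.07 and 9.13.

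The genes that fell code for proteins of both subunits. Of the 11 genes that fell in wild-type cells, 5 belong to the large and 6 to the small subunit, and of the 19 in knockout cells 10 and 9. Rps7, a small-subunit protein also known to bind the p53 inhibitor MDM2, read 8.01, 7.99 and 7.96 in naive and 7.44, 7.41 and 7.41 in activated wild-type cells, and 7.86, 7.94 and 7.95 in naive and 7.38, 7.30 and 7.37 in activated knockout cells. Naive and activated samples did not overlap. Rps7 fell by 0.56 ± 0.07 on the log2 scale in both genotypes, so that naive cells had 1.48-fold the activated level in each (adjusted p = 1.97e-05 and 1.81e-05). All 3 of its probe sets fell in both genotypes, by 0.46 to 0.88.

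Rpl37, a large-subunit protein, read 5.68, 5.93 and 5.67 in naive and 5.09, 5.26 and 5.12 in activated wild-type cells. It fell by 0.60 ± 0.11 there (adjusted p = 0.000637) and by 0.39 ± 0.11 in knockout cells (adjusted p = 0.0159), and the knockout call was lost without the naive array of mouse 4 or 6 or the activated array of mouse 4 (highest adjusted p = 0.0762). Rpl12, part of the base of the ribosomal stalk, read 8.11, 8.17 and 8.09 in naive and 7.76, 7.77 and 7.79 in activated wild-type cells, without overlap. It fell by 0.35 ± 0.07 and 0.42 ± 0.07 (adjusted p = 0.00224 and 0.000473). A second, dimmer probe set of Rpl12 differed by -0.04 and 0.05 and did not pass, and the mean over both lost the call.

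Rps14, which lines the decoding region of the small subunit and is lost in the human 5q- syndrome, read 8.49, 8.50 and 8.39 in naive and 7.98, 8.02 and 7.99 in activated wild-type cells, and 8.31, 8.44 and 8.39 in naive and 7.84, 7.79 and 7.29 in activated knockout cells. The naive and activated samples were separate, and the activated knockout sample of mouse 6 was the lowest. Rps14 fell by 0.46 ± 0.12 in wild-type cells (adjusted p = 0.00813) and by 0.74 ± 0.12 in knockout cells (adjusted p = 0.000168). Without the activated array of mouse 6 the fall in knockout cells was 0.56 (adjusted p = 0.000115). Rps21, a small-subunit protein, fell by 0.30 ± 0.08 and 0.41 ± 0.08 (adjusted p = 0.0158 and 0.00156), and all 5 of its probe sets passed in wild-type cells and 4 in knockout cells, where the fifth differed by -0.15. The wild-type call of Rps21 was lost in 3 of the alternatives (highest adjusted p = 0.0681), namely array centring, a second quantile normalization and leaving out the activated array of mouse 1. Outside the 5 largest falls of each genotype, the other 6 in wild-type cells were of 0.20 to 0.33 and the other 14 in knockout cells of 0.21 to 0.41.

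Rps19, whose human counterpart was the first gene found in Diamond-Blackfan anemia, read 7.50, 7.62 and 7.53 in naive and 7.34, 7.41 and 7.33 in activated wild-type cells. In knockout cells it read 7.44, 7.64 and 7.57 in naive and 7.14, 7.11 and 6.66 in activated samples, with mouse 6 again the lowest. It differed by -0.19 ± 0.11 in wild-type cells (adjusted p = 0.262) and fell by 0.58 ± 0.11 in knockout cells (adjusted p = 0.000915). Without the activated array of mouse 6 that fall was 0.43 (adjusted p = 0.00199).

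**Figure D3:**
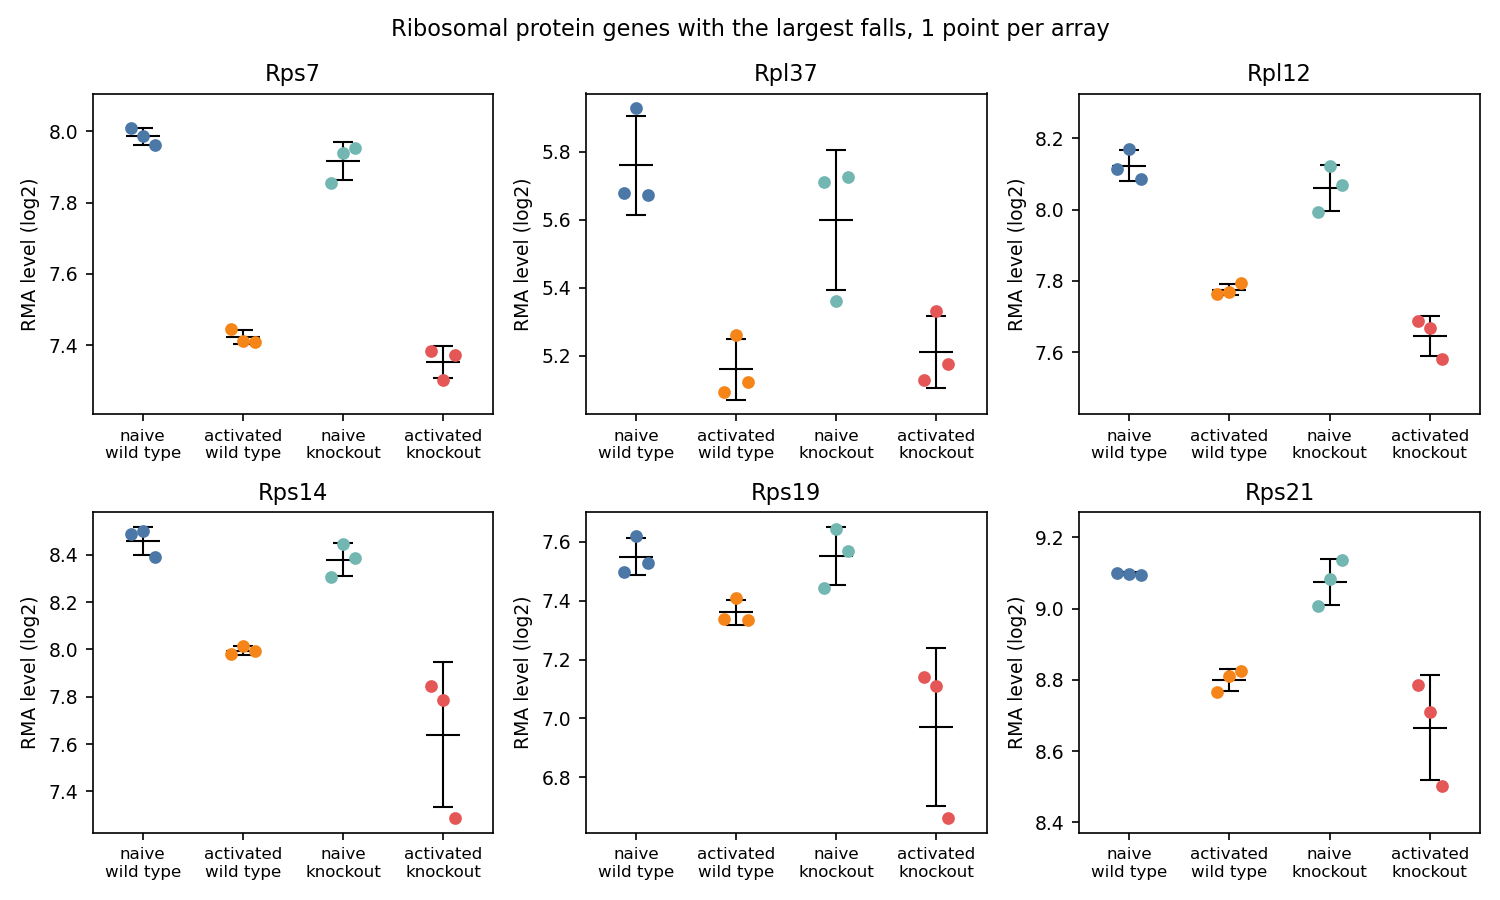
Levels (vertical axes, RMA log2) of Rps7, Rpl37, Rpl12, Rps14, Rps19 and Rps21 in the 4 groups, with 1 point per array and black bars for the mean ± SD of 3 arrays; vertical ranges differ between panels. All activated samples lay below the naive samples of their genotype, and the activated knockout sample of mouse 6, the right-hand point of its group, was the lowest for Rpl12, Rps14, Rps19 and Rps21.

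Rps2 was the only other gene that rose in wild-type cells. This small-subunit protein lies at the entry of the mRNA channel, and its level was 8.04, 7.97 and 8.01 in naive and 8.32, 8.24 and 8.36 in activated cells. It rose by 0.30 ± 0.10 (adjusted p = 0.0453), against -0.07 ± 0.10 in knockout cells (adjusted p = 0.736), where the value without the activated array of mouse 6 was 0.07. The call in wild-type cells was lost in 10 of 22 alternatives (highest adjusted p = 0.131), namely a second quantile normalization and leaving out any 1 of the 6 wild-type or 3 naive knockout arrays. A second probe set of Rps2 differed by 0.19 in wild-type and 0.16 in knockout cells and did not pass (adjusted p over all probe sets = 0.0879 and 0.165). In knockout cells Rpl14, a large-subunit protein, rose by 0.23 ± 0.08 (adjusted p = 0.0308), against 0.09 ± 0.08 in wild-type cells (adjusted p = 0.445). The knockout call was lost in 5 of 22 alternatives (highest adjusted p = 0.125): without the naive array of mouse 5 or 6 or the activated array of mouse 6, with only the 6 arrays compared, and with the mouse as a block (adjusted p = 0.0649). In wild-type cells Rpl14 passed in 2 alternatives, at 0.34 with the mean of its probe sets (adjusted p = 0.00342) and at 1.22 on its dim probe set alone (adjusted p = 0.000429). All 5 of its probe sets had positive differences in both genotypes.

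The stalk proteins Rplp0, Rplp1 and Rplp2 recruit the elongation factors. On activation of knockout cells Rplp0 fell by 0.24 ± 0.08 (adjusted p = 0.0304) and Rplp1 by 0.30 ± 0.08 (adjusted p = 0.011), while Rplp2 differed by -0.14 ± 0.08 (adjusted p = 0.234). In wild-type cells the differences were -0.05, -0.18 and -0.04, and none of the 3 passed. The call for Rplp0 was lost in 8 of 22 alternatives: with the mouse as a block (adjusted p = 0.0739), with only the 6 arrays compared, with array centring, with a second quantile normalization, and without the naive or the activated array of mouse 5 or of mouse 6. That for Rplp1 was lost in 2, with only the 6 arrays compared and without the activated array of mouse 6. Without that array the adjusted p was 0.104 for Rplp0 and 0.0567 for Rplp1. The median over the stalk list was -0.05 in wild-type and -0.24 in knockout cells.

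Among 12 ribosomal protein genes listed for a well-known role, 2 fell in wild-type cells and 3 in knockout cells, and none rose, with medians of -0.13 and -0.12. Those that passed were Rps14 and Rps19, given above, and Rpl5, which binds 5S RNA and, with Rpl11, holds MDM2 in check. Rpl5 read 4.87, 4.87 and 4.56 in naive and 3.64, 3.14 and 3.48 in activated wild-type cells, and 4.69, 4.50 and 4.35 in naive and 3.67, 3.72 and 3.70 in activated knockout cells, without overlap. It fell by 1.35 ± 0.13 in wild-type cells (adjusted p = 8.66e-07) and by 0.82 ± 0.13 in knockout cells (adjusted p = 0.000129), on a probe set marked antisense. Rpl11 differed by -0.18 ± 0.07 and -0.16 ± 0.07 (adjusted p = 0.0809 and 0.12).

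None of the other genes of that list passed. Rps6, the substrate of the S6 kinases, had a dim chosen probe set, at 3.60 ± 0.08 in naive and 3.69 ± 0.15 in activated wild-type cells, with a difference of 0.09 ± 0.15 (adjusted p = 0.717). Rps3, which lies at the mRNA entry and also acts in NF-kappa-B signalling, differed by -0.16 in each genotype. Rps26, a contact of the mRNA at the exit, and Rpsa, also known as a laminin receptor, differed by 0.09 and -0.03 in wild-type cells. Rps27a, made as a fusion with ubiquitin, Rpl26, a regulator of p53 translation, and Rpl38, required for translation of Hox mRNAs in mice, differed by -0.04, -0.10 and -0.10.

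Probe sets of 1 gene passed in opposite directions for Rpl13a and Rpl41. Rpl13a, known in human cells for a role in translational silencing outside the ribosome, had 4 probe sets. The chosen one differed by -0.15 in wild-type cells (adjusted p = 0.188), another fell by 0.34, and the 2 marked antisense rose by 1.00 and 0.61 (adjusted p over all probe sets = 0.00482, 1.01e-05 and 0.00247). For Rpl41, a peptide of the large subunit, 2 probe sets rose by 0.23 and 0.22 and a dimmer one fell by 0.59 in knockout cells when every probe set was tested. No direction is therefore given for either gene. Over all 164 probe sets of the 76 genes, 12 rose (7.32%) and 29 fell (17.7%) in wild-type cells and 13 rose (7.93%) and 44 fell (26.8%) in knockout cells. Over all probe sets 12.1% rose and 11.9% fell in wild-type cells, and 12.7% and 11.9% in knockout cells. Among 62 probe sets shared between a ribosomal protein gene and other loci, 1 rose (1.61%) and 10 fell (16.1%) in wild-type cells and 0 rose and 13 fell (21%) in knockout cells (adjusted p under 0.05 over all probe sets). Near-identical pseudogenes are common for this family, and the authors' annotation carries a cross-hybridization note for the chosen probe set of 67 of the 76 genes (88.2%), against 46.5% of all genes.

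The calls of the 2 genotypes overlapped, though they rest on 1 shared estimate of the spread per gene from all 12 arrays. Of the genes that fell, 11 were shared, which is all of the wild-type falls (100%) and 57.9% of the knockout falls, and of the genes that rose 2 were shared (66.7% of each). Over all genes the shared falls were 59.1% of the wild-type and 64.8% of the knockout falls, and the shared rises 85.7% and 80.4%. The 8 genes that fell in knockout cells alone all had negative differences in wild-type cells. Across the 76 genes the changes in the 2 genotypes, which share no array, had a Pearson r of 0.96 and a Spearman rho of 0.78. Without the 5 paralogs with an l suffix these were 0.77 and 0.74 over 71 genes, with the same sign for 56 of them. These are descriptions across genes on the same arrays, and genes are not independent replicates.

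**Figure D4:**
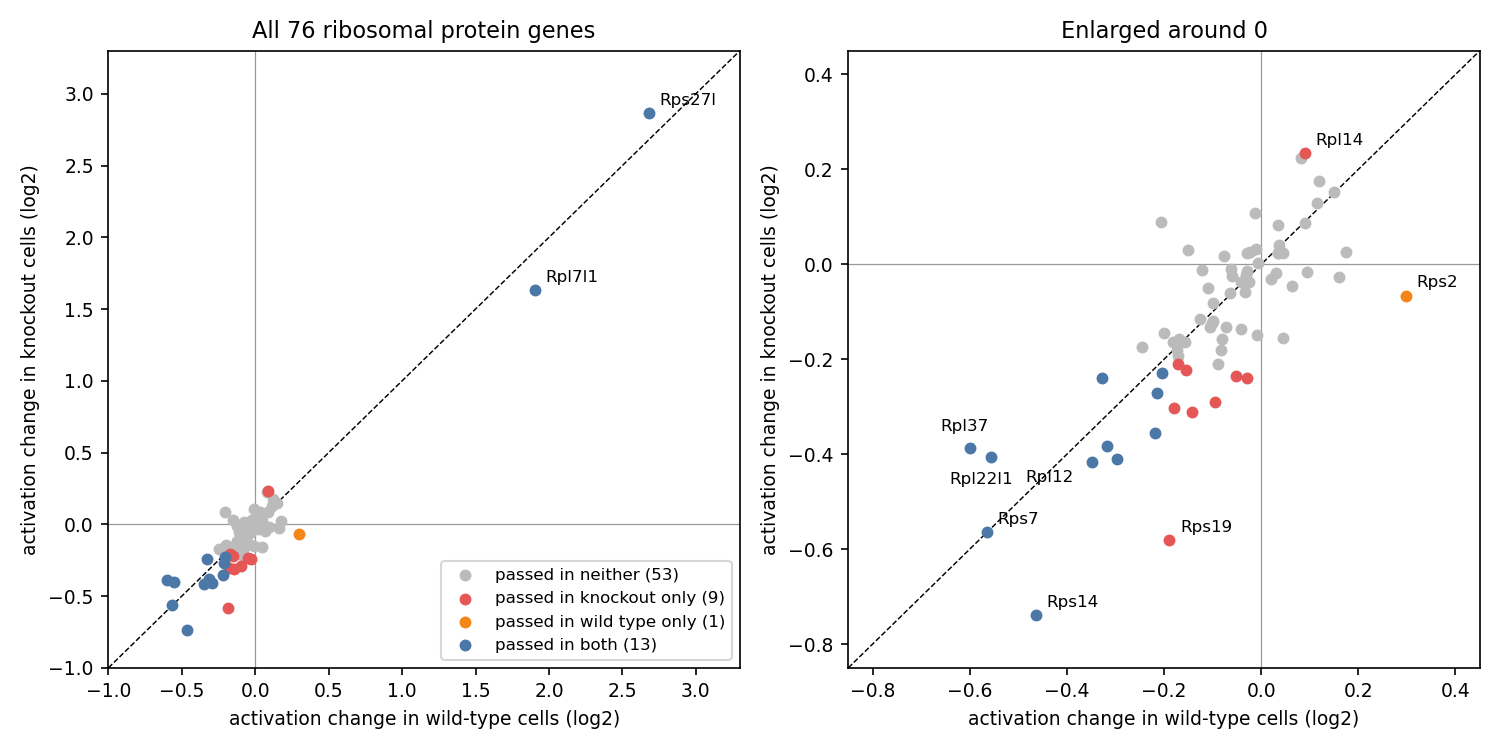
Activation change (log2) of each of the 76 genes in wild-type cells (horizontal axis) and knockout cells (vertical axis), with all genes on the left and the region around 0 enlarged on the right. Colours give the calls, with 13 genes passing in both genotypes, 9 in knockout cells only, 1 in wild-type cells only and 53 in neither, and the dashed line marks equal change. Rps27l and Rpl7l1 stand apart at the upper right and most genes lie close to 0.

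Genes with and without the pyrimidine run were set side by side, and those without it can hold shorter stretches of C or T. In wild-type cells 1 of 23 genes with a run rose and 2 fell, with a median of -0.07, and of 35 without a run 2 rose and 6 fell, with a median of -0.08. In knockout cells 2 of 23 rose and 2 fell (median -0.02) with a run, and 1 of 35 rose and 10 fell (median -0.12) without one. The differences between the sets were not tested. Of the genes printed above, Rps7 and Rpl12 have no run and fell, and Rpl22l1 has one and fell. Rps27l, with a run at 1 of its 2 annotated starts, and Rpl7l1, without one, rose in both genotypes. Rpl14 has a run and in the main fit passed as higher in knockout cells only.

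Other genes of translation and ribosome assembly were listed for comparison. In a list of 18 genes whose mRNAs also carry TOP tracts or are TOP host transcripts, 8 rose and 1 fell in wild-type cells (median 0.16) and 7 rose and 1 fell in knockout cells (median 0.13). Eif3l, a subunit of initiation factor 3, rose by 1.43 ± 0.10 in wild-type cells, Nap1l1, a histone chaperone, by 1.37 ± 0.11, and Npm1, a nucleolar protein of ribosome assembly, by 0.60 ± 0.08. Tpt1, the translationally controlled tumour protein, fell by 0.25 ± 0.07 (adjusted p = 0.0182) in wild-type cells.

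All 10 chaperones and importins of ribosomal proteins rose in both genotypes, with medians of 0.95 and 1.02. Ipo5, an importin of ribosomal proteins, rose by 2.67 ± 0.11 and 2.23 ± 0.11. Grwd1, the chaperone of uL3, rose by 1.43 ± 0.15 in wild-type cells, and Kpnb1, the common importin beta, by 1.40 ± 0.10 and 1.70 ± 0.10. Ipo7, another importin, rose by 1.05 ± 0.10 and 0.93 ± 0.10.

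Of 18 genes of the mTORC1 axis, 7 rose and 3 fell in wild-type cells (median 0.26) and 6 rose and 4 fell in knockout cells (median 0.23). Eif4ebp1, a repressor of cap-dependent initiation under control of mTORC1, rose by 4.15 ± 0.14 and 4.25 ± 0.14, and Larp4, an RNA-binding protein that protects mRNA tails, by 2.69 ± 0.14 and 1.91 ± 0.14. Ddit4 and Sesn2, inhibitors of mTORC1 signalling, rose by 3.00 ± 0.31 and 2.00 ± 0.10 in wild-type cells. Pdcd4, an inhibitor of the helicase eIF4A, fell by 1.62 ± 0.08 and 1.67 ± 0.08, and the sestrin Sesn1 fell by 1.22 ± 0.10 and 0.54 ± 0.10. Of 5 measured genes around MDM2 and p53, 3 rose and 1 fell in wild-type cells and 3 rose and 2 fell in knockout cells, with medians of 0.66 and 0.40. Cdkn1a, a p53 target as Rps27l is, rose by 4.55 ± 0.21 and 4.11 ± 0.21, and Mdm2 rose by 0.66 ± 0.09 and 0.46 ± 0.09. Nop53, a ribosome assembly factor, fell by 0.52 ± 0.09 and 0.56 ± 0.09. The part of p53 in these changes or in that of Rps27l was not tested.

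Ribosomal proteins with other names were listed separately, and not all of that list is reported here. Fau, the fusion that yields eS30, differed by -0.23 ± 0.11 in wild-type cells (adjusted p = 0.161) and fell by 0.52 ± 0.11 in knockout cells (adjusted p = 0.00247). Rack1, a scaffold on the small subunit, differed by -0.10 ± 0.08 (adjusted p = 0.41) and fell by 0.28 ± 0.08 (adjusted p = 0.0141).

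Loss of Ezh2 changed no ribosomal protein gene beyond the threshold in naive cells. None of the 76 was higher or lower in limma's test, where 0.62% of all genes were higher and 0.468% lower, and 1 of the 76 had an unadjusted p under 0.05. The median difference was -0.0122, against -0.0060 over all genes. The 95% interval of the difference lay within 0.5 log2 units of 0 for 72 of the 76 genes, and its median half-width was 0.16. Rpl31, a large-subunit protein near the peptide exit tunnel, had the largest difference. It read 3.36, 3.47 and 3.28 in wild-type and 2.94, 2.93 and 3.04 in knockout cells, without overlap, for a difference of -0.40 ± 0.10 (95% interval -0.61 to -0.19, adjusted p = 0.0712). Its adjusted p ranged from 0.0236 to 0.253 over 21 alternatives and passed in 3 of them. Its only probe set carries both the antisense mark and the cross-hybridization note. Rpl7l1 had the next largest, of 0.30 ± 0.14 (adjusted p = 0.53). Of the other lists, the paralog, stalk, known-role, TOP, chaperone and p53 lists had no passing gene in either knockout comparison, and the mTORC1 list had Larp4 higher by 0.63 and Sesn1 lower by 0.44 in naive cells (adjusted p = 0.0479 and 0.0375).

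In activated cells none of the 76 was higher or lower either, where 0.949% of all genes were higher and 0.372% lower, and 4 of the 76 had an unadjusted p under 0.05. The median difference was -0.02, against 0.00 for all genes, and the interval lay within 0.5 of 0 for 74 of the 76 genes. The 2 exceptions were Rps19 and Rps14. Rps19 differed by -0.39 ± 0.11 (95% interval -0.63 to -0.15, adjusted p = 0.139) and Rps14 by -0.36 ± 0.12 (-0.61 to -0.10, adjusted p = 0.237), and for both genes the activated samples of the 2 genotypes did not overlap. Without the activated knockout array of mouse 6 these differences were -0.24 and -0.18. In limma with a variance trend and robust estimation Rps19 passed (adjusted p = 0.0417).

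**Figure D5:**
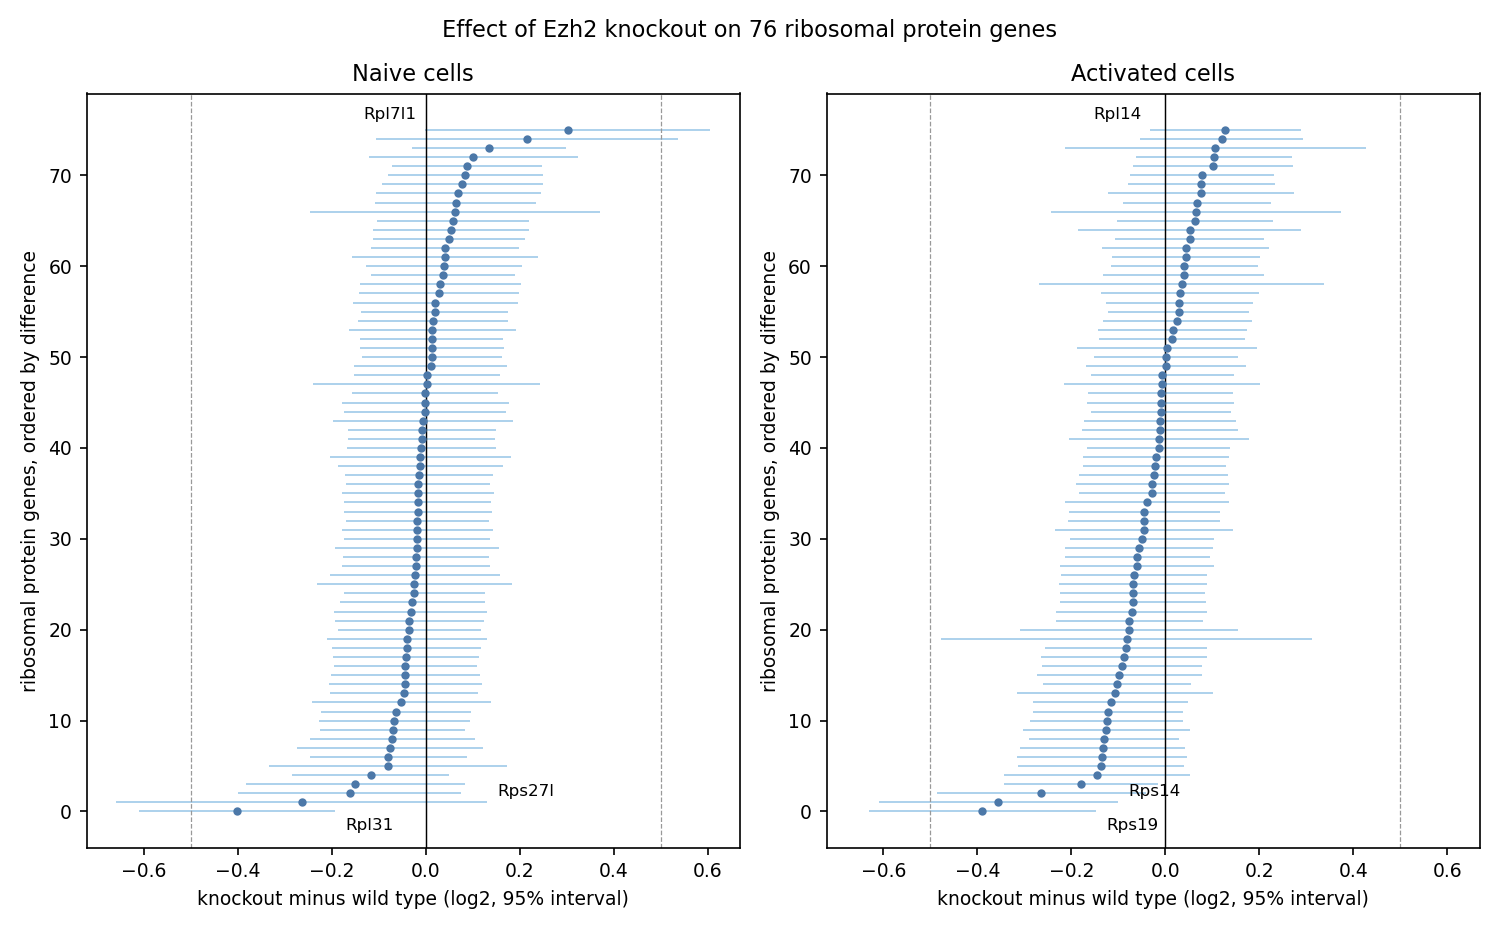
Difference between knockout and wild-type cells (horizontal axes, log2, with the 95% interval) for each of the 76 genes, ordered by size on the vertical axes, in naive cells (left) and activated cells (right); dashed lines mark differences of 0.5 in either direction. The intervals of 72 genes in naive cells and 74 in activated cells lie within the dashed lines.

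The genotype difference in activation passed for none of the 76 genes, where 0.606% of all genes were higher and 0.262% lower, and 2 of the 76 had an unadjusted p under 0.05. Those were Rps19 (-0.39 ± 0.16, 95% interval -0.73 to -0.05, adjusted p = 0.414) and Rps2 (-0.37 ± 0.15, -0.68 to -0.05, adjusted p = 0.409). Without the activated knockout array of mouse 6 they were -0.24 and -0.22, and on the second probe set of Rps2 the value was -0.03. Calls made in 1 genotype only, such as those of Rps19, Rplp0, Rplp1, Rpl14 and Rps2, are therefore not shown to differ between genotypes.

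The activated knockout array of mouse 6 and the naive knockout array of mouse 4 stood farther from their groups over these genes than the others. The root mean square deviation from the group mean over the 76 genes was 0.11 for each of them and between 0.04 and 0.07 for the other 10 arrays, and over all genes it was 0.16 and 0.14 against 0.10 to 0.14. Without the activated array of mouse 6 the knockout activation counts were 2 higher and 13 lower, and without the naive array of mouse 4 they were 3 and 17. Lower counts were not particular to these arrays. The falls numbered 12 without the naive array of mouse 6, and 13 without the naive or the activated array of mouse 5. They numbered 16 without the activated array of mouse 4. Markers of other cells moved with the groups too. The summed log2 level of 10 myeloid markers was between 19.98 and 21.25 in naive wild-type, 12.06 and 13.31 in naive knockout, 8.99 and 9.37 in activated wild-type and 8.05 and 10.14 in activated knockout cells. For 10 B cell markers, of which 9 fell in wild-type and 5 in knockout cells on activation, the ranges were 18.54 to 19.09, 14.35 to 16.21, 10.70 to 11.05 and 10.02 to 11.47. Among these B cell markers, Cd74 had means of 6.86 in naive wild-type and 5.56 in naive knockout cells. In activated cells its means were 3.19 in wild-type and 3.49 in knockout cells. Cd79b had a mean of 2.24 and Cd79a of 1.78 in naive wild-type cells, while Ms4a1 and Pax5 had group means of at most 1.47. The 5 NK cell markers summed to between 12.88 and 15.25 in naive knockout cells and 10.16 to 10.74 in the other groups, and Klra8 alone passed there, with Ncr1 at most at a mean of 0.71. The 4 CD4 T cell markers summed to between 6.89 and 9.07 and the 4 erythroid markers to between 2.68 and 3.63. The 5 CD8 T cell markers summed to 34.91 to 35.67 in naive cells, 31.13 to 31.38 in activated wild-type and 28.68 to 29.93 in activated knockout cells, and 4 and 5 of them fell on activation. The part of these shifts in the changes of the ribosomal protein genes was not tested.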

How the data were processed

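The log2 levels of 45141 probe sets on 12 arrays were made by the authors with a perfect-match version of RMA, per the file headers, and RMA is also named in the submitters' processing notes; the version was not stated. RMA sets all arrays to 1 distribution. The deposited series table and workbook differed by at most 5.0e-09. The 104 control probe sets were left out. Each gene was read by the brightest of its single-gene probe sets (mean of the 12 arrays), and symbols and promoters came from RefSeq (GRCm38.p6) through gene identifiers. No coordinates of the array annotation were used.

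All 20962 genes were fitted in limma 3.58.1 (R 4.3.3) with 1 mean per group (3 arrays each) and eBayes, and p-values were adjusted by Benjamini-Hochberg over all genes, two-sided, with 0.05 as threshold. There were 5 comparisons: activation in each genotype, knockout in each state and the genotype difference in activation. The fit was tested on simulated data. The 76 genes and all lists were chosen with earlier results of these data known. Named genes are paralog pairs, stalk proteins, genes with known roles, the 5 largest rises and falls per comparison (or the 2 largest differences where none passed), genes with opposed probe sets and up to 4 passing genes of each other list. A naive and an activated sample came from each mouse, per the labels, so the mouse was used as a block in an alternative; deviations from group means of the 2 arrays of a mouse correlated between -0.10 and 0.13 over genes. The array number limits the precision.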

Additional observations from a re-analysis of the deposited data

How the results depend on the processing

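All 22 alternatives kept the direction of most values. With the mouse as a replicate block, 3 genes rose and 8 fell in wild-type cells, and 2 rose and 14 fell in knockout cells. Apart from Rpl14, Rpl36a and Rplp0 in knockout cells the block changed no call of a named gene. A fixed term for mice 3 and 6, whose deposited file numbers are the highest, was chosen after seeing the data and moved no count of the 76 genes by over 1.5 times. In wild-type cells the rises numbered 6 with the mean of all probe sets and 5 without _x_ and _s_ probe sets, and the falls 18 with an intensity trend and 7 with array centring. In knockout cells the rises numbered 5 with the trend, 6 with the mean and 5 with centring, and the falls 12 when only the 6 arrays compared were fitted, 25 with the trend and 28 with the mean. Of knockout differences, 1 gene was lower in naive cells with the mean and 1 with a second quantile normalization (Rpl31), and 1 in activated cells with the trend (Rps19). The median change was -0.0081 (centring) and -0.0447 (quantile) in wild-type cells. It was -0.0981 (bright genes only), -0.1318 (mean), -0.1324 (without _x_ and _s_) and -0.0234 (centring) in knockout cells, and -0.0457 (mean) and -0.0514 (without _x_ and _s_) for knockout in activated cells. The direction turned for Rpl13a in wild-type cells (0.2806, mean) and knockout cells (-0.4132, without _x_ and _s_). It turned for Rpl41 in wild-type cells (-0.1999, mean, and -0.7818, without _x_ and _s_) and knockout cells (-0.5906, without _x_ and _s_), since these settings read other probe sets. For the other shifts the cause was not tested. Leaving out 1 array gave 7 to 11 falls in wild-type cells and 12 to 18 in knockout cells, and 0 to 1 genes lower in naive knockout cells. The medians then ran from -0.1206 to -0.0644 in knockout cells, from -0.0267 to 0.0142 for knockout in naive cells and from -0.0412 to 0.0007 for the genotype difference. Over all genes, 130 were higher and 98 lower in naive knockout cells, against as few as 68 and 64 with 1 array left out and 151 lower with a second quantile normalization. In activated knockout cells 199 were higher and 78 lower, against 116 and 37 when only the 6 arrays were fitted and as few as 104 and 34 with 1 array left out. The genotype difference had 55 lower, and 25 to 98 with 1 array left out. The number of arrays, dim probe sets and cross-hybridization to pseudogenes limit all values.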
